A study of Mus musculus with 18 samples.

Results

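The interferon regulatory factors described here are 8 genes of the family, Irf1, Irf2, Irf3, Irf4, Irf5, Irf7, Irf8 and Irf9. They were chosen by gene symbol from the 34896 genes of the expression table, whose unit is TPM, without use of any measured value. Of the 8 genes, 7 passed the filter on low values and were tested, and Irf4 did not pass it.

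The study examined how the transcriptional repressor GFI1 and the chromatin remodeler CHD4 act along the path from the granulocyte-monocyte progenitor (GMP) to the neutrophil. RNA-seq was made from GMPs, preneutrophils (preNeu) and mature neutrophils (matNeu) with 3 libraries each, all from wild-type C57BL/6 mice that were adult, 6 to 12 weeks old. ChIP-seq for CHD4 was made from wild-type (WT) GMPs and from GMPs of Gfi1KO (Gfi1-/-) mice of the same strain and age range. ChIP-seq for H3K4me2, a histone mark of promoters and enhancers, was made from wild-type GMP, preNeu and matNeu cells, and ATAC-seq, which maps open chromatin, from wild-type neutrophil stages. Each ChIP-seq and ATAC-seq sample was 1 library, so no value from them has a replicate check.

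Interferon regulatory factors share a DNA-binding domain that reads GAAA repeats, found in interferon-stimulated response elements, and some of them bind composite sites together with the ETS factor PU.1. IRF3, IRF5 and IRF7 act downstream of pattern recognition receptors and switch on interferon and cytokine genes, whereas IRF9 carries the response to the secreted interferon and IRF1 and IRF2 tune it. In bone marrow IRF8 is known for directing progenitors toward monocytes and dendritic cells and for limiting the output of neutrophils.

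Libraries were grouped by their titles, because a separate cell type label in the deposited records differed from the title for 13 of the 18 samples. Marker genes were read against the titles. The summed level of 8 GMP markers, led by Mpo in GMPs, was 45473 to 47408 TPM in GMP, 8366 to 9415 TPM in preNeu and 15.5 to 43.0 TPM in matNeu libraries. The summed level of 7 preNeu markers, led by Ngp in preNeu cells, was 130 to 155 TPM in GMP, 149145 to 175481 TPM in preNeu and 4570 to 6853 TPM in matNeu libraries. That of 8 matNeu markers was 178 to 200.1 TPM in GMP, 39753 to 49069 TPM in preNeu and 53386 to 83177 TPM in matNeu libraries, so this list set the neutrophil stages apart less, and its leading gene S100a8 was lower in the third matNeu library (14320 TPM) than in every preNeu library (24049 to 29349 TPM). TPM keeps no read depth, so the depth behind each value is unknown. The records do not say whether replicates came from separate animals, so the p-values measure the spread between libraries.

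The make-up of the family changed between stages. The 8 genes summed to 869 ± 22.4 TPM in GMPs, 277 ± 29.4 TPM in preNeu and 1369.5 ± 89.3 TPM in matNeu cells (SD, n = 3). Irf8 alone held 59.0% of this sum in GMPs, 4.51% in preNeu and 0.802% in matNeu cells. Irf7 held 0.913%, 9.15% and 32.9%. Irf3 held 14.7%, 31.2% and 7.42%, so that GMPs were led by Irf8, preNeu cells by Irf3 and matNeu cells by Irf7.

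**Figure D1:**
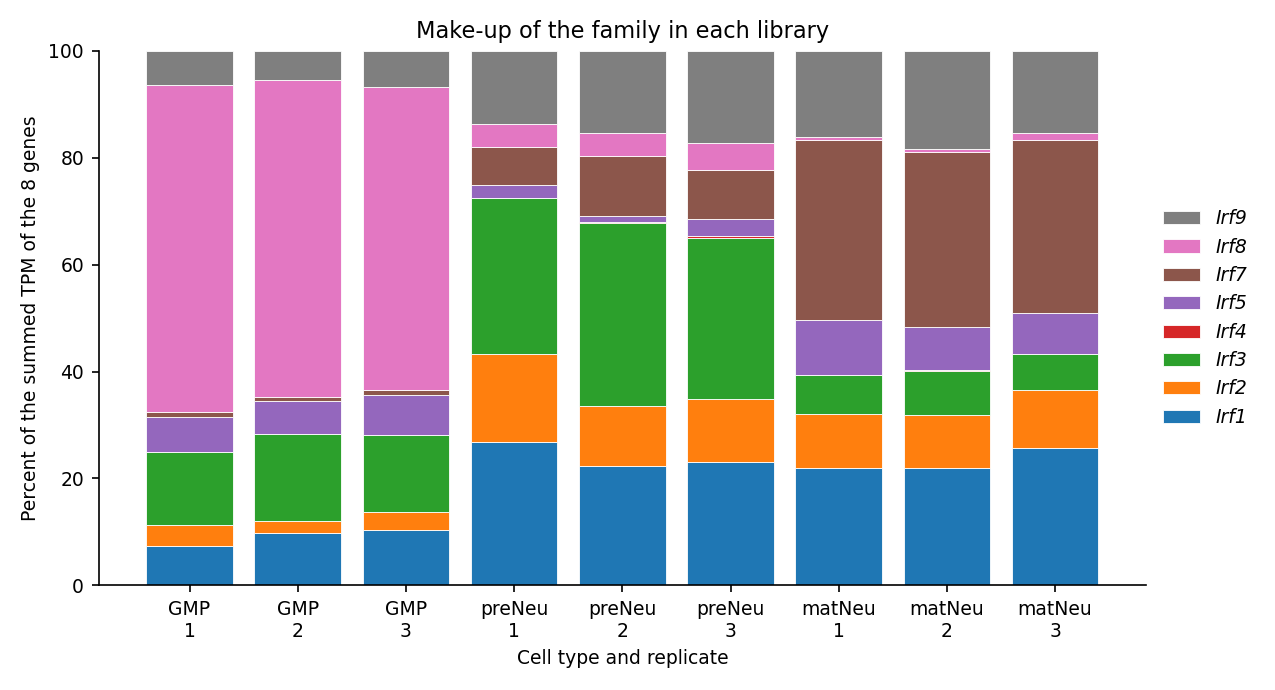
Share of each gene in the summed TPM of the 8 interferon regulatory factors, in percent, stacked for each of the 9 RNA-seq libraries. Irf8 takes 56.6% to 61.3% in the GMP libraries and Irf7 takes 32.5% to 33.7% in the matNeu libraries.

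The comparison of preNeu cells with GMPs asks which factors change as progenitors commit to neutrophils. Irf8, Irf5 and Irf3 fell, Irf7 rose, and Irf1, Irf2 and Irf9 did not pass the test. By limma on log2(TPM + 1) over 13061 genes, at an adjusted p under 0.05, 1 of 7 tested members was higher and 3 were lower, where 14.7% of all tested genes were higher and 44.3% were lower. Under both other scalings 2 were higher, Irf2 and Irf7, and 2 were lower, Irf5 and Irf8, where 2811 of 13061 genes were higher and 4003 lower under median-of-ratios scaling and 2749 and 4123 of 13011 with the top 50 genes left out. The median log2 change as deposited was -0.33 for the 7 members and -0.52 for all tested genes. The Irf3 fall was close to that overall shift, and the uncalled differences of Irf1 and Irf9 were smaller than it.

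The comparison of matNeu cells with GMPs spans the whole path. Irf1, Irf2, Irf5, Irf7 and Irf9 rose and Irf8 fell, while Irf3 did not pass the test. By the same limma fit, 5 of 7 tested members were higher and 1 was lower, where 22.8% of all tested genes were higher and 54.1% were lower. The median log2 change of the 7 members was 1.99, and that of all tested genes was -0.92.

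The comparison of matNeu with preNeu cells covers the last step. Irf1, Irf2, Irf5, Irf7 and Irf9 rose, and neither Irf3 nor Irf8 passed the test. By limma, 5 of 7 tested members were higher and 0 were lower, where 22.9% of all tested genes were higher and 39.8% were lower. The median log2 change was 2.24 for the members and -0.32 for all tested genes. The 3 comparisons share libraries and are not independent of each other, and an exact permutation test of 3 libraries against 3 cannot give a p under 0.1.

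**Figure D2:**
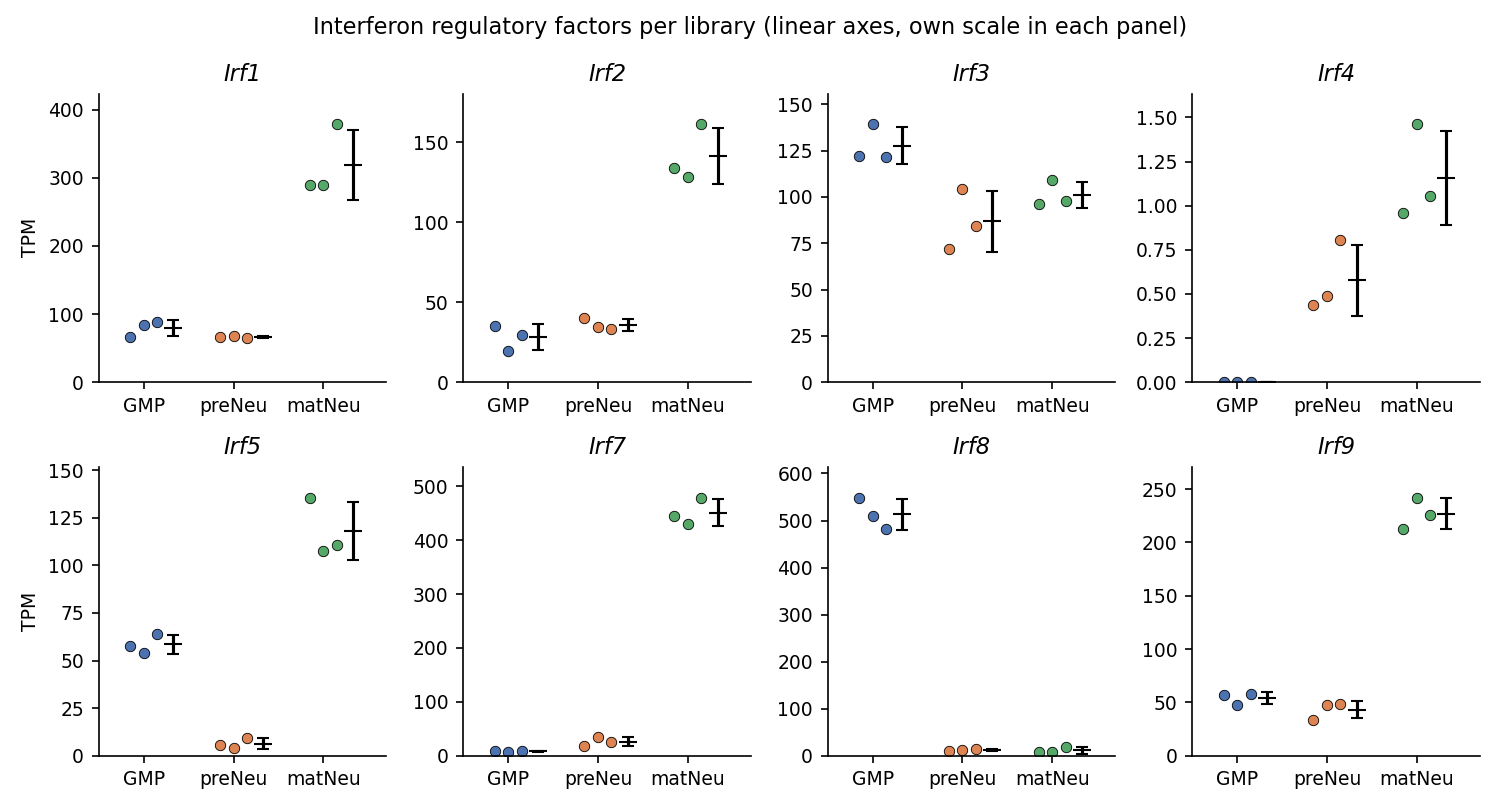
TPM of each interferon regulatory factor in every library, with 3 points per cell type and the mean and SD (n = 3) beside them, on linear axes that start at 0 and differ between panels. Irf8 is high in GMPs, Irf7 in matNeu cells, and Irf5 is lowest in preNeu cells.

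Irf8 (ENSMUSG00000041515, chr8:120736358-120756694, plus strand, GRCm38) showed the largest fall of the tested members. Its level was 548, 509 and 483 TPM in the GMP libraries, 10.8, 12.7 and 13.9 TPM in the preNeu libraries and 6.93, 7.60 and 19.2 TPM in the matNeu libraries. All 3 GMP libraries stood far above the other 6, and the preNeu and matNeu libraries overlapped. The mean of 513 ± 32.9 TPM in GMPs (SD, n = 3) was above 98.9% of protein-coding genes. The mean in preNeu cells was 12.5 ± 1.602 TPM, a level 41.1-fold lower, and the log2(TPM + 1) change was -5.26 (SE 0.303, limma adjusted p = 3.49e-07). Of all tested genes, 0.107% fell by more. In matNeu cells the mean was 11.2 ± 6.89 TPM, and the change from GMPs was -5.53 (adjusted p = 3.20e-08).

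Between preNeu and matNeu cells Irf8 differed by -0.27 (adjusted p = 0.462), a sign that turned to 0.10 under median-of-ratios scaling. The third matNeu library decided this result, since without it the change was -0.70 (adjusted p = 0.00377). In the same library 9 markers of B and plasma cells summed to 751 TPM, against 608 and 647 TPM in the other matNeu libraries, 542 to 659 TPM in GMP and 271 to 330 TPM in preNeu libraries. Ighm, the most abundant of them in every library, was at 612, 545 and 557 TPM in the third, first and second matNeu library, Cd79b at 53.9, 27.3 and 25.1 TPM and Cd79a at 33.1, 16.2 and 18.6 TPM, and 7 markers of dendritic cells summed to 137, 82.4 and 105 TPM. The matNeu cells had been sorted on myeloid surface markers, and the part of other cells in the Irf8 level was not tested.

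Most of 6 monocyte markers moved with Irf8 from GMPs to preNeu cells. The 6 summed to 3819 to 4597 TPM in GMP, 1659 to 2211 TPM in preNeu and 725 to 1185 TPM in matNeu libraries. Ly6c2, the leading gene, made up most of the sum. Of the 6, 5 were lower and 1 was higher in preNeu cells than in GMPs, where 44.3% of all tested genes were lower and 14.7% higher. The median log2 change was -4.20 over the list and -5.26 for Irf8. F13a1 went from 906 to 13.3 TPM, a larger fall than that of Ly6c2. Ly6c2 was at 2603 to 3188 TPM in GMP and 1623 to 2184 TPM in preNeu libraries. Markers of eosinophils, basophils and mast cells summed to 1152 to 1408 TPM in GMP, 110.4 to 176 TPM in preNeu and 38.0 to 51.6 TPM in matNeu libraries. From GMPs to preNeu cells 4 of these 6 were lower, as Irf8 was, and 2 did not pass the test. From preNeu to matNeu cells 5 were lower and 1 was higher, where 39.8% of all tested genes were lower and 22.9% higher. Irf8 gave no passing difference at that step. None of the 6 monocyte markers was at 0 in any library, and the part of these cells in the fall of Irf8 was not tested. GMPs had been sorted after depletion of cells with lineage markers, GR1 and CD11b among them, a step meant to remove mature cells. In bulk samples, fewer cells of a type and less RNA per cell cannot be told apart.

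Irf4 (ENSMUSG00000021356, chr13:30749226-30766976, plus strand), a factor of B cells, plasma cells and dendritic cells, was the lowest member in each cell type. It was listed at 0 in the 3 GMP libraries, at 0.436, 0.488 and 0.808 TPM in preNeu and at 0.957, 1.46 and 1.06 TPM in matNeu cells. The libraries of the 3 cell types did not overlap, yet at most 2 of 9 libraries reached 1 TPM. With no filter on low values limma called it higher in matNeu cells than in GMPs by 1.10 on the log2(TPM + 1) scale (adjusted p = 0.000190). Markers of dendritic cells, of which some need Irf4 or Irf8, summed to 28.7 to 38.5 TPM in GMP, 71.5 to 108 TPM in preNeu and 82.4 to 137 TPM in matNeu libraries, with Itgax and Cd209a at 0 in all GMP libraries, and their part was not tested.

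Irf7 (ENSMUSG00000025498, chr7:141262706-141266481, minus strand), which is itself induced by interferon and amplifies its production, rose at both steps. Its level was 8.24, 6.82 and 8.73 TPM in the GMP libraries, 17.4, 34.2 and 25.7 TPM in the preNeu libraries and 445, 429 and 478 TPM in the matNeu libraries. None of the 3 groups overlapped, and the spread was widest, relative to the mean, in preNeu cells. The means were 7.93 ± 0.994, 25.8 ± 8.43 and 451 ± 24.98 TPM (SD, n = 3). From GMPs to preNeu cells the mean was 3.25-fold higher, with a log2(TPM + 1) change of 1.54 (SE 0.218, limma adjusted p = 0.000149). From preNeu to matNeu cells it was 17.5-fold higher, with a change of 4.13 (adjusted p = 5.37e-08). Over the whole path it was 56.9-fold higher, with a change of 5.67 (adjusted p = 2.54e-09), above 98.8% of all tested genes.

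Irf5 (ENSMUSG00000029771, chr6:29526625-29541871, plus strand), which acts downstream of MyD88 and drives inflammatory cytokine genes, dipped in preNeu cells and recovered. Its level was 57.7, 53.9 and 63.9 TPM in GMPs, 5.79, 3.83 and 9.27 TPM in preNeu and 135, 108 and 111 TPM in matNeu cells. Every preNeu library was below every library of the other stages, and every matNeu library was above every GMP library. The mean in preNeu cells was 9.29-fold lower than in GMPs, with a log2(TPM + 1) change of -3.09 (SE 0.247, limma adjusted p = 3.24e-06). The rise from preNeu to matNeu cells was 18.7-fold, with a change of 4.09 (adjusted p = 1.43e-07). The net gain from GMPs to matNeu cells was 2.02-fold, with a change of 1.00 (adjusted p = 0.00343).

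Irf3 (ENSMUSG00000003184, chr7:44997648-45002848, plus strand), a factor made without stimulation and switched on by phosphorylation, varied least among the 7 tested members. It measured 122, 139 and 122 TPM in GMPs, 71.7, 104 and 84.5 TPM in preNeu and 96.4, 109 and 97.9 TPM in matNeu cells. Both neutrophil stages lay below all GMP libraries, and overlapped each other. Its fall to preNeu cells was -0.57 (limma adjusted p = 0.00759), but it did not pass the test under either other scaling, at -0.14 and -0.17. Its difference between matNeu cells and GMPs was -0.33 (adjusted p = 0.0632) as deposited and turned to 0.49 (adjusted p = 0.00766) under median-of-ratios scaling, so no direction is given for Irf3 over the whole path. Its difference between matNeu and preNeu cells was 0.23 (adjusted p = 0.199), and passed the test at 0.63 under median-of-ratios scaling. Left out in turn, preNeu replicate 1 or 2 gave an adjusted p of 0.0411 or 0.0433 for the same -0.33.

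Irf9 (ENSMUSG00000002325, chr14:55603571-55610030, plus strand) is the DNA-reading subunit of the complex that type I interferon activates. It measured 56.7, 47.4 and 57.6 TPM in GMPs, 33.7, 47.1 and 48.5 TPM in preNeu and 213, 242 and 226 TPM in matNeu cells. The matNeu libraries stood apart from the other 6, among which GMPs and preNeu cells overlapped. The mean of 227 ± 14.6 TPM (SD, n = 3) was 4.21-fold that of GMPs, with a log2(TPM + 1) change of 2.06 (SE 0.161, limma adjusted p = 5.33e-07), and 5.26-fold that of preNeu cells. The difference between preNeu cells and GMPs was -0.33 (adjusted p = 0.103), with the opposite sign, at 0.09 and 0.06, under the other scalings.

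Irf1 (ENSMUSG00000018899, chr11:53770014-53778374, plus strand), an activator induced by interferon gamma, measured 66.2, 84.3 and 87.8 TPM in GMPs, 66.1, 67.7 and 64.5 TPM in preNeu and 289, 289.7 and 378 TPM in matNeu cells. It shared the late rise of Irf9, and its GMP and preNeu libraries overlapped. The mean of 319 ± 51.3 TPM in matNeu cells (SD, n = 3) was 4.83-fold that of preNeu cells, with a log2(TPM + 1) change of 2.24 (limma adjusted p = 3.16e-07), and 4.02-fold that of GMPs (change 1.99, adjusted p = 3.89e-07). Between preNeu cells and GMPs the difference was -0.25 (adjusted p = 0.176), and 0.17 and 0.15 under the other scalings.

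Irf2 (ENSMUSG00000031627, chr8:46739732-46847458, plus strand), which occupies many of the sites of IRF1 and can repress them, measured 35.3, 19.6 and 29.6 TPM in GMPs, 40.3, 34.3 and 33.3 TPM in preNeu and 134, 128 and 161 TPM in matNeu cells. Activator and antagonist were thus high in the same libraries. Irf2 in matNeu cells, at 141 ± 17.5 TPM (SD, n = 3), was 5.00-fold its level in GMPs, with a log2(TPM + 1) change of 2.31 (SE 0.207, limma adjusted p = 1.58e-06), and 3.92-fold its level in preNeu cells. Its difference between preNeu cells and GMPs was 0.37 (adjusted p = 0.144). That value passed the test at 0.79 and 0.77 under the other scalings and at 0.55 (adjusted p = 0.0442) without the first GMP library.

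The small changes of Irf1, Irf2, Irf3 and Irf9 depended on the scaling of TPM. As deposited, the median log2 change of all tested genes from GMPs to matNeu cells was -0.92, and it was -0.25 after median-of-ratios scaling and -0.82 after leaving out the 50 genes of highest mean TPM. For preNeu cells against GMPs the medians were -0.52, -0.16 and -0.20, and for matNeu against preNeu cells -0.32, -0.04 and -0.52. Relative to the median of all tested genes, the deposited change from GMPs to matNeu cells was 6.59 for Irf7, 3.24 for Irf2, 2.98 for Irf9, 2.92 for Irf1, 1.92 for Irf5, 0.59 for Irf3 and -4.61 for Irf8. The rises of Irf1, Irf2, Irf5, Irf7 and Irf9 to matNeu cells, the dip of Irf5 and the falls of Irf8 from GMPs kept their sign and passed the test under both other scalings.

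By mean TPM, the order in GMPs was Irf8, Irf3, Irf1, Irf5, Irf9, Irf2, Irf7 and Irf4, and the libraries of Irf5 and Irf9 overlapped in that order. In preNeu cells it was Irf3, Irf1, Irf9, Irf2, Irf7, Irf8, Irf5 and Irf4, with overlaps of Irf9 with Irf2 and of Irf2 with Irf7. In matNeu cells it was Irf7, Irf1, Irf9, Irf2, Irf5, Irf3, Irf8 and Irf4, with overlaps of Irf2 with Irf5 and of Irf5 with Irf3. Irf7 thus moved from the 7th to the 1st place, and Irf8 from the 1st to the 7th. Irf7 in matNeu cells stood above 98.4% of protein-coding genes.

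Among the tested members, Irf1 and Irf9 had the most alike profiles, with a root mean square difference of 0.235 in centred log2(TPM + 1) over the 9 libraries, and 22 of the other tested genes were closer to Irf1 than Irf9 was. Irf7 and Irf8 were the least alike pair, at 4.62. Over all tested genes, the profile closest to Irf1 was that of Dedd2 (0.143), followed by Crebl2 and Cyth1, and the closest to Irf9 was Klhdc4 (0.160), followed by Smap2 and Tgm3. Irf2 was closest to Purg (0.154), Sft2d2 and Ankrd44. Irf7 was closest to Ggt5 (0.247), Slc37a3 and Btg2, and Irf3 to Ankzf1 (0.113), Arfgap1 and Zfp868. The dip of Irf5 was matched best by Gm2a (0.300), with 159, 12.5 and 262 TPM in GMP, preNeu and matNeu cells, then by Ppp1r15a and Ugt1a6a. The fall of Irf8 was matched best by Ly86 (0.334), with 150.5, 3.46 and 3.29 TPM, then by Hmgn1 and Tctex1d1.

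Several members overlap other genes, and how reads in the overlaps were assigned was not tested. Rnf31, which overlaps the start of Irf9, stood at 28.3, 21.9 and 86.1 TPM in GMP, preNeu and matNeu cells and rose with it, by 1.57 from GMPs to matNeu cells on the log2(TPM + 1) scale (limma adjusted p = 0.000162). Bcl2l12, which overlaps Irf3 on the opposite strand, fell from 45.7 to 1.41 TPM, and Tnpo3, at the end of Irf5, fell from 122 to 24.2 TPM between GMPs and matNeu cells. Phrf1 overlaps the end of Irf7 and went from 79.8 to 34.9 TPM, a fall that did not pass the test under median-of-ratios scaling (-0.39, adjusted p = 0.0585). Gm20388, a long annotated gene that spans Irf8, was at 19.1, 25.4 and 2.02 TPM, and Gm17334, inside Irf1, at 1.31, 0.603 and 7.84 TPM.

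Partners and cofactors of the family changed as well. Of 8 tested partner factors, 5 were higher and 1 was lower in matNeu cells than in GMPs, with a median log2 change of 0.96. For this list and those that follow, the shares over all tested genes between matNeu cells and GMPs were 22.8% higher and 54.1% lower. Spi1, which encodes PU.1, the partner of IRF8 and IRF4 at composite sites, rose from 379.7 ± 132 to 766 ± 63.6 and 2019.6 ± 142 TPM (SD, n = 3). From GMPs to preNeu cells this was the reverse of Irf8, which gave no passing difference between preNeu and matNeu cells. Bcl6, a repressor, rose from 0.786 to 46.3 TPM, and Tcf3 changed by -1.21 (adjusted p = 0.0220) but by -0.40 (adjusted p = 0.391) under median-of-ratios scaling. Of the 3 cofactors that bind IRF2, Irf2bp1 and Irf2bp2 fell between GMPs and matNeu cells while Irf2 rose, Irf2bp2 from 56.8 ± 5.22 to 23.1 ± 7.24 TPM, and Irf2bpl was at most 1.81 TPM in any library.

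The interferon genes themselves gave no signal to test. None of 8 listed genes passed the filter, and Ifng and Ifnk were each above 1 TPM in the first matNeu library and in no other. The receptors and kinases that lead to Irf9 and Irf1 were higher in matNeu cells than in GMPs for 4 of 6 and 4 of 5 tested genes, with 1 lower in each list and medians of 1.38 and 1.1196. Ifnlr1, a subunit of the interferon lambda receptor, rose from 0.0519 to 34.7 TPM in preNeu and 45.1 TPM in matNeu cells, Ifngr1 fell from 684 to 306 and 305 TPM, and Jak1 rose from 85.9 to 124 and 441 TPM. Tyk2 fell from 53.3 to 24.3 TPM, which was not past the threshold under median-of-ratios scaling (-0.29, adjusted p = 0.118).

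Sensors and adaptors upstream of IRF3, IRF5 and IRF7 split. Of 19 tested genes, 6 were higher and 11 lower in matNeu cells than in GMPs as deposited (median -0.64), a share lower near that of all tested genes, and 9 were higher and 6 lower under median-of-ratios scaling (median 0.11), where 4406 of 13061 tested genes were higher and 5553 lower at that scaling, so the list as a whole had no direction that held. Myd88, the adaptor of IRF5 and IRF7, rose from 84.2 to 445 TPM and Ddx58, the RNA sensor RIG-I, from 17.2 to 177 TPM. Sting1, which activates IRF3, fell from 131 to 6.06 TPM in preNeu and 4.35 TPM in matNeu cells, and Ikbke, a kinase of IRF3 and IRF7, was at 74.4, 75.6 and 2.24 TPM.

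Of 12 inhibitors of the family and of interferon signalling, 10 were higher and 2 lower in matNeu cells than in GMPs (median 1.54), and 1 of the 2 that were lower, Ptpn2, did not pass the test under median-of-ratios scaling (-0.08, adjusted p = 0.555). Socs3 rose from 0.197 to 227 TPM and Usp18 from 12.4 to 120.3 TPM. Among genes that interferon induces, 15 of 27 were higher and 7 lower (median 0.73), or 18 and 4 (median 1.56) under median-of-ratios scaling, beside the same 4406 and 5553 of 13061. In preNeu cells against GMPs 4 were higher and 13 lower (median -0.72), where 14.7% and 44.3% of all tested genes were. Both other scalings gave 7 and 11. The 28 listed genes summed to 2663 to 3344 TPM in GMP, 1673 to 1927 TPM in preNeu and 6157 to 6574 TPM in matNeu libraries. B2m alone had means of 1477, 1274 and 2431 TPM. The median of the 28 genes was 9.13 to 10.6 TPM in GMP, 5.74 to 6.66 TPM in preNeu and 74.6 to 85.4 TPM in matNeu libraries. Of 12 tested targets of IRF8 in monocytes and dendritic cells, 5 were higher and 7 lower in preNeu cells than in GMPs (median -0.68), where 14.7% and 44.3% of all tested genes were, and 5 were higher and 5 lower under both other scalings. Over the whole path 8 were higher and 3 lower in matNeu cells than in GMPs (median 0.94), with Ly86 at the values given above, Ctsc at 203, 23.3 and 21.9 TPM, Cybb at 80.4, 1965 and 286 TPM and Cd74 at 6.68, 83.0 and 97.8 TPM in GMP, preNeu and matNeu cells.

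CHD4 occupied chromatin near 3 of the 8 members in WT GMPs, and it was dense at Irf2. Within the gene body and 10 kb on either side, 20 CHD4 peaks lay at Irf2 (18), Irf4 (1) and Irf5 (1), and 0 at Irf1, Irf3, Irf7, Irf8 and Irf9. A CHD4 peak was thus found at 37.5% of the members, where 32.4% of 21938 protein-coding genes had one, and 42.8% of those at 1 TPM or more in GMPs, so the share of members lay between those of the 2 backgrounds. Irf2 is a long gene, with a window of 127727 bp, and had more CHD4 peaks than 99.1% of genes. CHD4 peaks covered 5.57% of its window, a larger share than at 96.7% of genes.

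Most of the 18 sites at Irf2 lay toward its 3′ end. The first had its summit 25417 bp inside the gene, the next 4 lay between -3948 and -597 bp from an internal Irf2 start, and the strongest of all, at chr8:46842309-46843330 in an intron near the 3′ end, had a fold enrichment over background of 36.9. Over the 20 sites, 9 were in introns, 5 downstream, 3 in promoters, 2 in exons and 1 upstream, and the nearest start of a protein-coding gene was the member's own for all 20. The site at Irf4, chr13:30749194-30749435, covered its annotated start at a fold enrichment of 8.07, although Irf4 was listed at 0 in GMPs. The site at Irf5, chr6:29524001-29524675, had its summit at -2167 bp from the start, at a fold enrichment of 9.64.

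In Gfi1KO GMPs, 1 of these 20 sites had a CHD4 peak, the strongest site of Irf2, where the Gfi1KO peak chr8:46842694-46843040 had a fold enrichment of 11.4. The share kept was 5.0%, where 18.5% of all CHD4 sites in WT GMPs were kept and a mean of 13.9% was kept among sites of like fold enrichment, in 10 classes of equal size. In the top class, to which the kept site belonged, 92.9% of all sites were kept. No peak in Gfi1KO GMPs lay at another member, where 10.2% of protein-coding genes had one. The WT list held 35790 peaks and the Gfi1KO list 7316, each from 1 library of unknown depth, and lower occupation and a library of lower yield cannot be told apart.

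With the windows widened to 50 kb, Irf8 had 3 weak CHD4 sites in WT GMPs with fold enrichments of 4.96 to 5.27. Their summits lay -50107, 53156 and 56643 bp from the Irf8 start, and none had a peak in Gfi1KO GMPs. The site at -50107 bp lay nearer to the start of Cox4i1, at 17943 bp, than to that of Irf8. Counted with the sites within 10 kb, Irf2 had 29 sites, of which 4 were kept, 2 of these nearest to the start of Enpp6, and Irf4 had 9, Irf1 and Irf5 had 1 each, that of Irf5 being the site at -2167 bp, and Irf3, Irf7 and Irf9 had 0.

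H3K4me2 at Irf8 followed its RNA. In GMPs, 6 peaks covered 11587 bp of the Irf8 window, and the largest, chr8:120735113-120744743, spanned the start and 9631 bp. In preNeu cells the window held a single peak of 575 bp, chr8:120752005-120752579, which overlapped none of the GMP peaks, and in matNeu cells the window held 0 peaks. With lists of equal length, 37643 peaks per cell type, the covered length was 11587, 0 and 0 bp. Within 50 kb, Irf8 had 22 peaks over 24835 bp in GMPs, 4 peaks over 3807 bp in preNeu and 3 peaks over 3764 bp in matNeu cells.

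**Figure D3:**
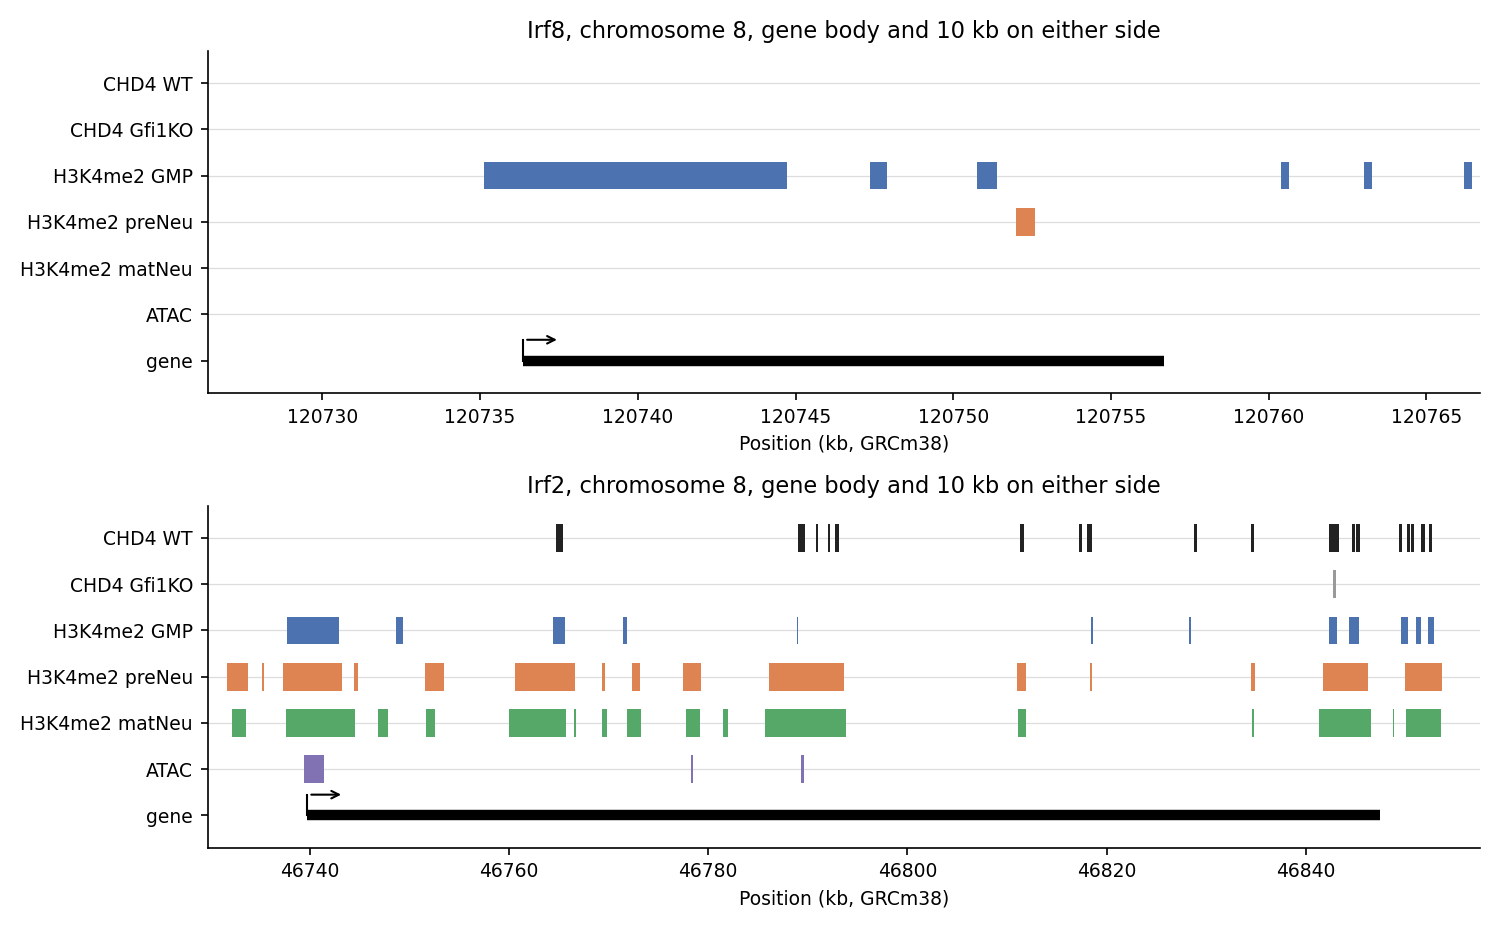
Deposited peaks at Irf8 (upper panel) and Irf2 (lower panel) on chromosome 8, drawn to scale in kb of GRCm38, with 1 line per peak list and the gene as a black bar with an arrow at its start. Irf8 has H3K4me2 peaks over 11587 bp in GMPs and none in matNeu cells, and Irf2 has 18 CHD4 peaks in WT and 1 in Gfi1KO GMPs.

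Irf2 showed the opposite course. Its H3K4me2 peaks covered 11779 bp in GMPs, 36919 bp in preNeu and 37818 bp in matNeu cells, and with equal lists 11779, 33612 and 35954 bp. The widening had occurred in preNeu cells, where the RNA of Irf2 passed the test against GMPs under both other scalings but not as deposited. Of the 20 CHD4 sites at members, 18 of them at Irf2, H3K4me2 overlapped 10 in GMPs, 16 in preNeu and 14 in matNeu cells. Over all CHD4 sites the shares were 37.8%, 59.5% and 52.5%, so a gain of the mark was not particular to the members. The preNeu peak chr8:46786117-46793622 held 4 CHD4 sites of WT GMPs around the internal start of Irf2.

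The other members that rose differed in the mark. At Irf1 it covered 6413, 11871 and 12966 bp in GMP, preNeu and matNeu cells, and at Irf7 2651, 5703 and 5346 bp. Irf9 changed less, with 3298, 3583 and 4137 bp, and 3298, 2842 and 4137 bp with equal lists, and Irf3 had 4173, 4529 and 3638 bp. Irf5, whose RNA dipped and then rose above that of GMPs, had 6481, 4210 and 4413 bp, and a peak over its start in each of the 3 cell types. At Irf4 the covered length was 2600, 526 and 0 bp, with no Irf4 peak at a −log10 q of 5 or more, and the peak over its start was chr13:30748879-30750727 in GMPs and chr13:30749172-30749697 in preNeu cells. Peaks covered the starts of Irf1, Irf2, Irf3, Irf5, Irf7 and Irf9 in all 3 cell types.

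Over the family, H3K4me2 was found at 8, 8 and 6 of the 8 members in GMP, preNeu and matNeu cells, where 73.6%, 74.2% and 72.1% of protein-coding genes had a peak, and 97.0%, 97.9% and 97.3% of those at 1 TPM or more in GMPs. The 2 members without it in matNeu cells were Irf4 and Irf8. The mark covered 14.2%, 19.7% and 19.8% of the windows of the members, in all 48982, 67916 and 68318 bp, and 4.23%, 7.52% and 6.25% of the windows of all protein-coding genes. Over protein-coding genes at 1 TPM or more in GMPs the shares were 6.59%, 11.9% and 9.98%. The lists held 37643, 49578 and 44094 peaks with median fold enrichments of 2.89, 4.55 and 3.78, so lengths between cell types also depend on how much was called in each.

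**Figure D4:**
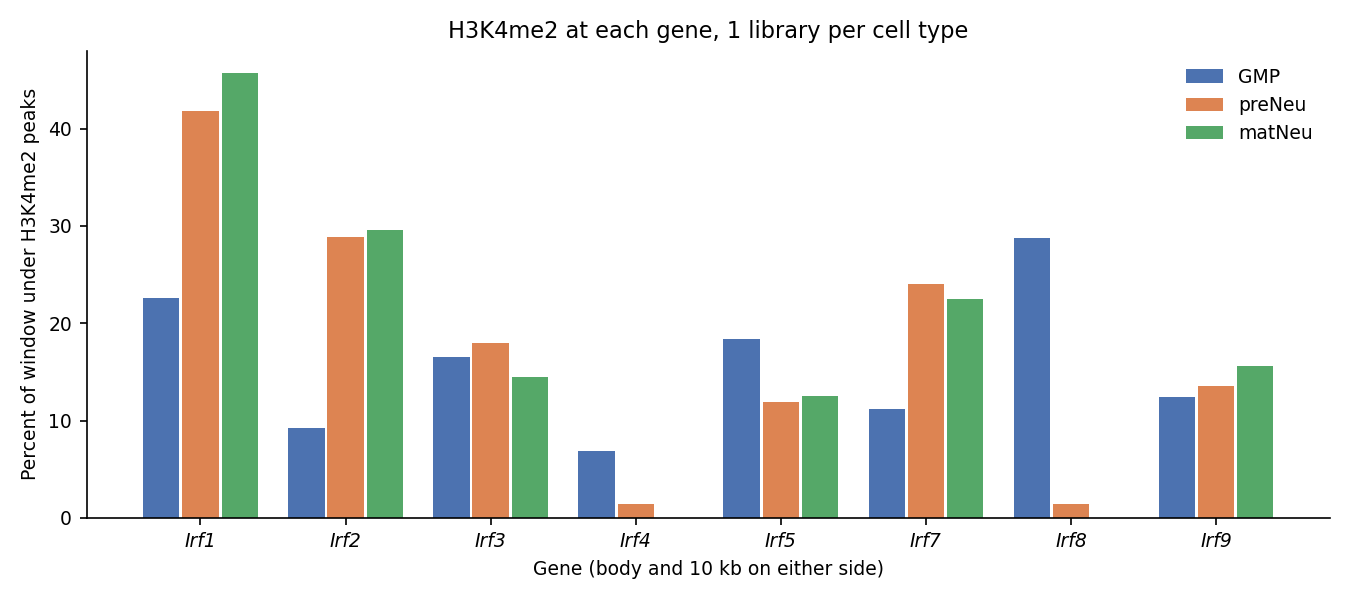
Percent of the window of each interferon regulatory factor, the gene body and 10 kb on either side, that lay under H3K4me2 peaks in GMP, preNeu and matNeu cells (1 library each, bars from 0). Irf8 falls from 28.7% to 1.43% and 0%, and Irf2 goes from 9.22% to 28.9% and 29.6%.

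Open chromatin was called at 6 of the 8 members, where 52.9% of protein-coding genes and 80.7% of those at 1 TPM or more in GMPs had a peak, with 3 ATAC-seq peaks at Irf1, 3 at Irf2, 2 at Irf7, 1 each at Irf3, Irf5 and Irf9, and 0 at Irf4 and Irf8. For open chromatin the same list was deposited under both neutrophil stages, so the stage of these peaks cannot be told. Irf4 and Irf8 were thus without open chromatin peaks, and without H3K4me2 in matNeu cells. Of the 20 CHD4 sites at members, 1 overlapped an ATAC-seq peak, the second site of Irf2, where 10.1% of all CHD4 sites did.

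Promoters were read for motifs because Irf1, Irf2 and Irf9 rose together. RefSeq promoters (GRCm38.p6) matched 8 of 8 members with 11 entries, and the 250 bases before each start were searched on both strands. Both Irf9 entries start inside the GENCODE gene, at 414 and 1008 bp from its start, so the bases before that start were not searched. The second entries of Irf1 and Irf8 also start inside their genes, at 459 and 2281 bp. The core AANNGAAA of interferon regulatory factors occurred 2 times in the Irf2 promoter and in no other entry searched. Of 27025 promoters, 21.6% held it. Of these 2 overlapping matches in Irf2, the first is also part of GGAANNGAAA, the composite site with PU.1 (2.38% of promoters), and the second of the doubled GAAANNGAAA (3.04% of promoters), since both longer motifs contain the core. A match is a description of letters and says nothing on binding.

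The Irf2 promoter, chr8:46739495-46739731 on the plus strand of GRCm38, is shown for its overlapping AANNGAAA matches, in capitals, at bases 245 to 232 before the RefSeq start. Its first bases overlap an exon of the noncoding gene Gm16675, which is read from the other strand.
Irf2 promoter: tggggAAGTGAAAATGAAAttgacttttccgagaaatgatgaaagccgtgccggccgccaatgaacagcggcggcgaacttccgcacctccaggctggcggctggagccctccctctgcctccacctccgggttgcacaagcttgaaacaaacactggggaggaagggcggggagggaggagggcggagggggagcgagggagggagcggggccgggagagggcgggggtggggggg

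In the CHD4 sites, the same motifs were searched over the 200 bases around each summit. AANNGAAA occurred in 7 of the 20 sites at members, or 35.0%, where 35.1% of 35728 CHD4 sites in WT GMPs held it and 15.5% of promoter windows of the same length. GGAANNGAAA occurred in 4 of the 20, all at Irf2 (20.0%, against 9.40% of all CHD4 sites), and GAAANNGAAA in 0 of the 20 (5.16% of all CHD4 sites). The GFI1 core AAATCA occurred in 3 of the 20 (12.0% of all CHD4 sites), all at Irf2, and in 1 of the 20 within 100 bases around the summit (5.56% of all CHD4 sites). In the promoters AAATCA occurred in 1 of 2 entries of Irf1, the one at the gene start, and in 2 of 2 entries of Irf8. The second Irf8 entry is the one inside the gene. Of all promoters, 12.7% held the motif.

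The windows of 2 CHD4 sites of Irf2 are shown because they differ in fate. The fifth site, at chr8:46792802-46793001, has its summit at -597 bp from the internal start, had a fold enrichment of 12.5 and was not found in Gfi1KO GMPs, and its AANNGAAA match, in capitals, is part of a GGAANNGAAA match. The eleventh site, at chr8:46842696-46842895, was the kept one, and its window held none of these motifs. It was the only site kept of the 18 at Irf2. Sites that were not kept, the first and the third among them, also held none of these motifs, and a link between motif and fate was not tested. Both windows shown are read from the plus strand of GRCm38.
Irf2 CHD4 site 5: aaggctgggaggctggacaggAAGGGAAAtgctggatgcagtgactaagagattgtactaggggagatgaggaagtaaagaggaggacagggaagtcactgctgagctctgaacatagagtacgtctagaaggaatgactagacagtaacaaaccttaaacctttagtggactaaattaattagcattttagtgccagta
Irf2 CHD4 site 11: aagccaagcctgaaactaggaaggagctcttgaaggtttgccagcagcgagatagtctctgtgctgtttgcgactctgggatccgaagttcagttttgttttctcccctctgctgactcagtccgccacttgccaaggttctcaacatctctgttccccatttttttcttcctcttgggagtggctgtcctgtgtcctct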

How the data were processed

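RNA-seq of 9 libraries and single ChIP-seq and ATAC-seq libraries were used. The authors deposited expression as TPM per gene, each library summing to 1000000, and 0 columns were left unused. The peak lists deposited by the authors give for each peak a fold enrichment over background, a linear ratio, and a −log10 q-value. The submitters' notes name FastQC 0.11.5, MultiQC 1.6, Trimmomatic 0.36, BWA 0.7.17, MACS2 2.1.0 and kallisto 0.44.0. For RNA-seq the published methods describe TopHat and HTSeq instead, so it is not certain how, and on which annotation, the TPM values were made. Depth per sample is unknown, which leaves the precision of low values unknown.

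A gene was kept if 3 or more libraries reached 1 TPM. Changes were tested by limma 3.58.1 (R 4.3.3) on log2(TPM + 1), the model holding cell type alone, with a variance trend and Benjamini-Hochberg adjusted p-values (two-sided) under 0.05 over all tested genes. The fit and the motif search were tested on simulated data. Peaks were assigned to GENCODE M21 genes on GRCm38 within 10 kb, promoters ran from 2 kb before to 500 bp after a start, and an overlap of 1 bp counted as shared. Python 3.11.15, numpy 2.4.6, pandas 2.3.3 and matplotlib 3.10.9 were used. CHD4 sites outside the numbered, X and Y chromosomes (62) were left out of the motif search. The H3K4me3 and GFI1 peak lists do not have coordinates of mouse GRCm38 and were not used, and the ATAC-seq list under preNeu repeats that under matNeu. Named genes were each member, the genes of each pathway list with the 2 largest changes each way and the 2 highest means, the 3 most alike profiles per tested member, and genes that share a member's window; of these the text gives examples, and genes beyond them (Irf2bpl and marker genes) were named after their values were seen. The members and lists were chosen with earlier results of these data known. The search for AAATCA and the list counts under 2 other scalings were added after seeing the data. Some items are not reported here. Alternatives were another pseudocount, other filters, 2 scalings, fits of the compared groups alone, with a replicate block or without trend, a minimum change, each library left out, stricter peaks, other windows, overlaps and equal lists.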

Additional observations from a re-analysis of the deposited data

How the results depend on the processing

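For the 21 changes of tested members, 18 alternatives gave 378 values, of which 359 kept their sign and side of the threshold, 4 kept their sign and lost the call, 9 kept their sign and gained it and 6 changed sign. Median-of-ratios scaling turned preNeu against GMP to 0.17 for Irf1 and 0.0904 for Irf9, matNeu against GMP to 0.49 for Irf3 and matNeu against preNeu to 0.10 for Irf8. Scaling without the 50 genes of highest mean TPM turned preNeu against GMP to 0.15 for Irf1 and 0.0640 for Irf9. The cause was not tested. Leaving out each library gave 4 to 5 called members for preNeu against GMP, 6 to 7 for matNeu against GMP and 5 to 6 for matNeu against preNeu. With replicate number as a block, 4, 7 and 5 members were called, Irf3 being the one gained (limma adjusted p = 0.0414). Whether libraries of the same number were paired is unknown. Their 9 correlations of residuals, -0.0394 to 0.123, come from 3 libraries per cell type and cannot decide it. At a log2 change of at least 1, Irf3 in preNeu cells and Irf5 over the whole path lost the call.

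Within 50 kb there were 43 CHD4 sites, 4 of them kept. The H3K4me2 length in GMP, preNeu and matNeu cells was 31042, 58581 and 61030 bp at a −log10 q of at least 5, 42713, 56897 and 60183 bp within 5 kb, 107573, 142018 and 129668 bp within 50 kb, and 63293 and 65975 bp in preNeu and matNeu cells with equal numbers of peaks. In windows of 50 bases on either side of the summit, 4 of 20 sites held AANNGAAA (20.5% of all CHD4 sites) and 2 held GGAANNGAAA (5.69%). Counts of pathway lists under both scalings were chosen after seeing the data, and 19 of 96 differed by more than 1.5 times or by turning to or from 0. With unknown depth, the precision of Irf4 near 1 TPM cannot be told.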
